A study of Mus musculus with 2 samples.

Results

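The genes described here are 9 regulators of erythroid and megakaryocyte fate, the transcription factor genes Gata1, Gata2, Klf1, Tal1, Gfi1b and Nfe2, the cofactor genes Lmo2 and Zfpm1, and the erythropoietin receptor gene Epor. They were chosen by symbol, and each of the 9 symbols occurred once among the 32285 genes of the count matrices. The data are 3′ single-cell RNA sequencing (scRNA-seq, DG1000 droplets) of mouse bone marrow (BM), with 1 control library (Ctrl) and 1 Map4k4-cKO library (cKO). Both came from mice aged 13 to 14 weeks, and in both a c-Kit+ fraction enriched on magnetic beads was mixed with whole BM depleted of red cells by lysis, at 2 parts to 3. The labels give the genotypes as control and Map4k4-cKO. The methods write them as Mx1-Cre Map4k4-/- (Ctrl) and Mx1-Cre Map4k4 f/f (cKO), littermates on C57BL/6, with floxed alleles deleted by poly I:C injection some weeks before the experiments. Read literally, the first would be a Map4k4-null, whereas the labels call these mice control, and this was not resolved here. Whether the controls were injected is not given in the sources used here. Mx1-Cre is driven by an interferon-responsive promoter and is not confined to blood cells. Because the c-Kit+ fraction was added back and red cells were lysed, shares of cells below are shares of these mixtures and not of the marrow.

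The members form the core circuit that separates red cell, platelet and mast cell fates from the other blood lineages. GATA2 acts in stem and early progenitor cells and is replaced on many of the same DNA sites by GATA1 as red cells mature, a replacement known as the GATA switch. GATA factors bind the motif GATA in complexes with TAL1, the bridging protein LMO2 and the cofactor FOG1, the product of Zfpm1. KLF1 binds CACCC motifs and drives globin and membrane genes, GFI1B represses through LSD1, NF-E2 p45 (from Nfe2) works as a dimer with a small MAF protein, and EPOR passes the erythropoietin signal on through JAK2 and STAT5.

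The Ctrl library held 10220 barcodes with 71527701 unique molecular identifiers (UMIs, counted molecules), and the cKO library 6872 barcodes with 64393950 UMIs. After filters on genes and mitochondrial UMIs, cells with at least 1000 UMIs were assigned to marker-gated classes, called by the cell type whose markers they carried ("-like"). This placed 6145 Ctrl and 4228 cKO cells. With 1 library a group there is no replicate, so differences between Ctrl and cKO were not tested. Intervals are exact 95% intervals and cover counting error only. Levels are CPM, the UMIs of a gene scaled to the same total of UMIs in each class. Map4k4 itself had 72.6 CPM in the Ctrl library and 64.3 CPM in the cKO library, but these 3′ UMIs need not lie in the deleted part and so do not check the label. Haemoglobin RNA is the usual free RNA of marrow suspensions. Its UMIs made up 0.314% of Ctrl UMIs and 0.124% of cKO UMIs over all kept cells. Red cells were included, so these shares do not measure free RNA. The libraries shared 3010 barcode strings. Of the 1538 that were gated in both libraries, 344 (22.4%) fell in the same class in both. The largest class, imNeu-like (immature neutrophil), held 31.0% of Ctrl and 35.2% of cKO gated cells, so unrelated cells would often match too. The share that unrelated cells would give was not computed, so the 22.4% does not show that cells were shared.

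The red cell classes carried most of the evidence and were unequal in size. Erythroid progenitor-like cells, gated on early red cell markers, numbered 375 in Ctrl (6.10% of gated cells, 5.52 to 6.73) and 82 in cKO (1.94%, 1.55 to 2.40). Erythroblast-like cells, gated on haemoglobin and other late genes, numbered 124 in Ctrl (2.02%, 1.68 to 2.40) and 18 in cKO (0.426%, 0.253 to 0.672). Megakaryocyte-like cells were rare, 24 in Ctrl and 6 in cKO, as were basophil/mast-like cells, 33 and 10, and HSC-like (stem cell) cells, 54 and 18. No member was a gate marker. Cells that also passed the gate of another lineage were left out as possible doublets. Among cells whose best class was erythroid progenitor-like these were 25 in Ctrl and 46 in cKO. Of these, 21 in Ctrl and all 46 in cKO also carried neutrophil markers. Median depth in the class was 14768 UMIs a cell in Ctrl and 24246 in cKO.

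Start-site sequences were at hand for 7 members (9 windows of 250 bases before a RefSeq start, GRCm38.p6). Each was searched on both strands for the GATA motif, spelled AGATAA or AGATAG as well as with T in the first place (TGATAA or TGATAG), and for CACCC. No GATA match overlapped a CACCC match in these windows. A GATA match lay in 1 window each of Klf1, Tal1, Gfi1b and Epor, and none lay in the windows of Gata1, Gata2 and Zfpm1. CACCC lay in 1 window of each of the 7 genes. Over all 32851 windows of the same length, 26.5% held such a GATA match and 52.0% held CACCC, so both are common and a match is a description only. The 4 stretches with a GATA match are shown because they hold the letters that GATA1 and GATA2, the pair compared below, are known to bind. They are written 5′ to 3′ on the gene's strand, upstream of annotated exons, with the match in capitals (a match on the other strand reads TTATCA or TTATCT). The stretches lie at chr8:84901842-84901927 (Klf1, plus strand, match 80 bases before the start), chr4:115056176-115056286 (Tal1, plus strand, 205 bases), chr2:28622037-28622162 (Gfi1b, minus strand, 120 bases) and chr9:21963577-21963690 (Epor, minus strand, 54 bases).
Klf1: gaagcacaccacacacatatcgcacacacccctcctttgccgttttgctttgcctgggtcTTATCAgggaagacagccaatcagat
Tal1: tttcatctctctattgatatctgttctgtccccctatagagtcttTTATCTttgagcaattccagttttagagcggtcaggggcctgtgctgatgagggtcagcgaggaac
Gfi1b: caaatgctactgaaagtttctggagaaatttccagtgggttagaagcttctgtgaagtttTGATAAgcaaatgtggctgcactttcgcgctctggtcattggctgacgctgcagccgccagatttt
Epor: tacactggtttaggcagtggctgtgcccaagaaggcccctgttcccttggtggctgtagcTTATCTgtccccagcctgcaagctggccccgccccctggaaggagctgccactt

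Gata1 (ENSMUSG00000031162, chromosome X, 7959260 to 7978071, minus strand, GRCm38), the master regulator of red cell maturation, was a red cell gene in both libraries. In erythroid progenitor-like cells its level was 140 CPM in Ctrl (131 to 150, 934 UMIs) and 142 CPM in cKO (127 to 157, 352 UMIs), and in erythroblast-like cells 145 CPM (118 to 176) and 147 CPM (102 to 204). The intervals of the 2 classes overlapped. Haemoglobin made up 22.0% of UMIs in Ctrl and 28.6% in cKO erythroblast-like cells, against 0.446% and 0.342% in erythroid progenitor-like cells. These UMIs are part of the total, so the CPM of every member is lowered more in erythroblast-like cells. Megakaryocyte-like cells had 61.5 CPM in Ctrl (39.8 to 90.9) and 40.3 CPM in cKO (13.1 to 94.1, 5 UMIs), and basophil/mast-like cells 26.7 CPM (9.80 to 58.2) and 62.4 CPM (22.9 to 136), with 6 UMIs in each library. The order of these classes differed between the libraries and their intervals overlapped in both. HSC-like cells held 9 and 1 UMIs. In neutrophil classes the level was 1.10 to 3.64 CPM in Ctrl and 0.112 to 0.365 CPM in cKO. The red cell classes held 71.9% of all Gata1 UMIs of the Ctrl library and 72.3% of those of the cKO library. Thinned to 1000 UMIs a cell, 10.7% of Ctrl and 7.32% of cKO erythroid progenitor-like cells showed a Gata1 UMI, against 0.696% and 0% of mNeu-like (mature neutrophil) cells, whose median depth before thinning was 2657 UMIs in Ctrl and 6634 in cKO.

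Gata2 (ENSMUSG00000015053, chromosome 6, 88193891 to 88207032, plus strand), the GATA factor of stem, early progenitor and mast cells, had the widest range of the GATA pair and was highest in basophil/mast-like cells. There it reached 1287 CPM in Ctrl (1143 to 1444) and 1291 CPM in cKO (1073 to 1539), and 30 of 33 Ctrl and 10 of 10 cKO cells had a UMI. HSC-like cells followed with 222 CPM in Ctrl (181 to 270) and 189 CPM in cKO (128 to 268), megakaryocyte-like cells with 251 CPM (205 to 305) and 145 CPM (86.0 to 229, 11 of 18 UMIs in 1 cell). HSC-like and megakaryocyte-like levels overlapped in their intervals. MPP-like (multipotent progenitor) cells held 84.8 CPM in Ctrl (65.8 to 107) and 39.5 CPM in cKO (17.1 to 77.8, 8 UMIs). The level in erythroid progenitor-like cells was 33.7 CPM in Ctrl (29.4 to 38.4) and 37.8 CPM in cKO (30.6 to 46.3). In erythroblast-like cells it was 7.23 CPM (5 UMIs) and 0, where the interval of the cKO sum of 0 reaches 15.5 CPM. Among Ctrl erythroid progenitor-like cells, the 111 with under 5000 UMIs had 93.9 CPM (61.9 to 137) and the 264 deeper ones 30.9 CPM (26.8 to 35.6). In cKO these were 42.0 CPM (5.09 to 152, 2 UMIs) and 37.8 CPM (30.4 to 46.3). ProNeu-like (neutrophil progenitor) cells held 6.12 and 2.64 CPM. Of the Gata2 UMIs, basophil/mast-like cells held 10.9% in Ctrl and 14.0% in cKO, and the red cell classes 8.65% and 10.6%. HSC-like and MPP-like cells together held 6.42% and 4.40%, neutrophil classes 6.38% and 6.32%, and megakaryocyte-like cells 3.85% and 2.03%. Most Gata2 UMIs thus lay outside these classes, largely in cells with no class, and the levels by class do not cover them.

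Set against each other, the Gata1 share of the pair's UMIs was higher from HSC-like to erythroid progenitor-like to erythroblast-like cells. Between the 2 red cell classes Gata2 was lower in erythroblast-like cells, while the Gata1 intervals overlapped. Gata1 was 8.11% of the Gata1 and Gata2 UMIs in Ctrl HSC-like cells (3.77 to 14.8) and 3.12% in cKO (1 of 32 UMIs). It was 19.7% and 21.7% in megakaryocyte-like cells, 80.7% (78.3 to 82.9) and 78.9% (74.8 to 82.6) in erythroid progenitor-like cells, and 95.2% (89.2 to 98.4) and 100% (35 of 35 UMIs) in erythroblast-like cells. Basophil/mast-like cells stood at the other end with 2.03% and 4.62%. Red cells of both classes were also split by their erythroblast marker UMIs per 1000. In cells with 0 such UMIs Gata2 had 46.1 CPM in Ctrl (36.5 to 57.4, 98 cells) and 75.8 CPM in cKO (58.7 to 96.3, 38 cells). In cells with 1 or 2 it had 52.6 CPM (44.0 to 62.5) and 33.2 CPM (20.6 to 50.7, 22 cells). With 3 to 19 it was at 7.71 and 6.41 CPM, and with 20 or more at 4.11 CPM and 0. Gata1 over the same 4 bins went from 118 to 164 CPM in Ctrl and lay between 124 and 158 CPM in cKO. The Ctrl and cKO intervals of Gata2 did not overlap in the first bin, where cKO was higher, and overlapped in the others. In cells thinned to 1000 UMIs, Gata1 and Gata2 were seen together in 1 of 375 Ctrl and 0 of 82 cKO erythroid progenitor-like cells. With all UMIs they were seen together in 18.7% (14.9 to 23.0) and 24.4% (15.6 to 35.1), so co-detection depended on depth.

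**Figure D1:**
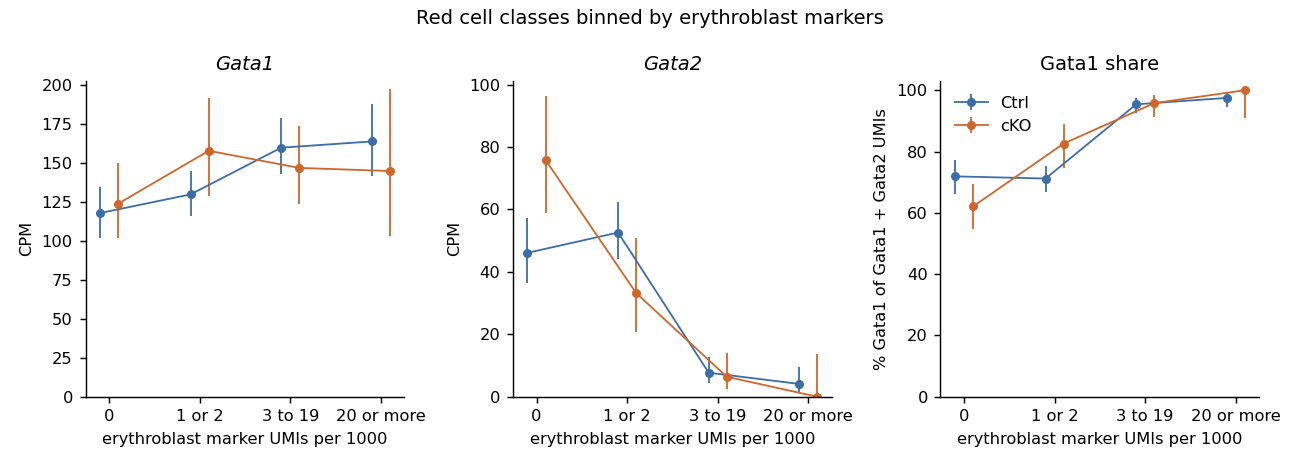
Gata1 level, Gata2 level (CPM) and the percent of Gata1 among Gata1 and Gata2 UMIs in erythroid progenitor-like and erythroblast-like cells together, split by erythroblast marker UMIs per 1000 (x axis). Points are bin sums of the Ctrl (blue) and cKO (orange) library and bars exact 95% counting intervals. Gata2 is 46.1 and 75.8 CPM in the first bin and under 8 CPM in the last 2, while the Gata1 percent ends at 97.5 in Ctrl and 100 in cKO.

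Klf1 (ENSMUSG00000054191, chromosome 8, 84901928 to 84905291, plus strand), the red cell Krüppel-like factor, had the largest share of its UMIs in red cells among the members, though the interval of Epor overlapped it. Its level in erythroid progenitor-like cells was 226 CPM in Ctrl (214 to 237) and 272 CPM in cKO (252 to 293), and in erythroblast-like cells 231 CPM (197 to 270) and 277 CPM (214 to 353). The red cell classes held 81.1% of Ctrl and 86.3% of cKO Klf1 UMIs. The next class, basophil/mast-like, held 5 UMIs in Ctrl and 1 in cKO, and megakaryocyte-like cells held 3 and 0. Thinned to 1000 UMIs, 20.3% and 19.5% of erythroid progenitor-like cells had a Klf1 UMI, against 0.309% and 0% of mNeu-like cells. Within the red cells of Ctrl, Klf1 went from 181 CPM (161 to 202) in cells with no erythroblast marker UMI to 279 CPM (250 to 310) in cells with 20 or more. In cKO the first bin was already at 252 CPM (220 to 288) and the last at 253 CPM (196 to 320).

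Tal1 (ENSMUSG00000028717, chromosome 4, 115056426 to 115071755, plus strand), which encodes the SCL factor, was shared by red cell, megakaryocyte-like and stem classes. It stood at 148 CPM in Ctrl (139 to 158) and 123 CPM in cKO (109 to 137) in erythroid progenitor-like cells, and at 207 CPM (174 to 244) and 214 CPM (159 to 282) in erythroblast-like cells. Megakaryocyte-like cells had 172 CPM in Ctrl (134 to 218) and 105 CPM in cKO (55.8 to 179), and HSC-like cells 58.8 CPM (38.8 to 85.6) and 91.3 CPM (51.1 to 151). The order of the red cell classes turned in 1 of 12 alternatives in each library. The log2 ratio of erythroblast-like over erythroid progenitor-like cells was 0.48 in Ctrl and 0.80 in cKO, but -0.03 in Ctrl with the mean of per-cell proportions and -1.06 in cKO without shared barcodes. With haemoglobin left out of the total it was 0.83 in Ctrl and 1.28 in cKO. In neutrophil classes Tal1 was highest in ProNeu-like cells, at 10.5 and 6.82 CPM.

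Lmo2 (ENSMUSG00000032698, chromosome 2, 103957986 to 103981878, plus strand), the bridge between TAL1 and GATA factors, was the broadest of the complex genes. It was highest in HSC-like cells of Ctrl with 562 CPM (496 to 635), where cKO had 444 CPM (348 to 559), and megakaryocyte-like cells had 359 CPM (304 to 423) and 508 CPM (390 to 650). Erythroid progenitor-like cells had 288 CPM in Ctrl (275 to 301) and 255 CPM in cKO (235 to 275), and erythroblast-like cells 306 CPM (267 to 351) and 265 CPM (203 to 339). It was also measured in the myeloid classes, with 157 and 120 CPM in ProNeu-like, 77.0 and 44.5 CPM in imNeu-like (immature neutrophil) and 111 and 73.9 CPM in monocyte-like cells. The red cell classes held 19.1% of its UMIs in Ctrl and 12.3% in cKO, and the neutrophil classes 36.7% and 56.3%.

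Gfi1b (ENSMUSG00000026815, chromosome 2, 28609450 to 28621982, minus strand), a repressor that also acts on its own gene, had its highest level in erythroid progenitor-like cells, at 148 CPM in Ctrl (139 to 158) and 141 CPM in cKO (127 to 157). Erythroblast-like cells were lower, with 110 CPM (86.6 to 138) and 71.4 CPM (41.6 to 114, 17 UMIs), where haemoglobin in the total lowers the CPM. The log2 ratio of erythroid progenitor-like over erythroblast-like cells kept its sign in every alternative. It fell to 0.03 in Ctrl (cells with at least 5000 UMIs) and 0.17 in cKO (at least 500 genes). Megakaryocyte-like cells had 73.9 CPM (49.8 to 105) and 56.4 CPM (22.7 to 116), and HSC-like cells 28.3 and 18.3 CPM. In basophil/mast-like cells it had 31.2 CPM in Ctrl (7 UMIs in 5 cells) and 104 CPM in cKO, where all 10 UMIs were in 1 cell.

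Zfpm1 (ENSMUSG00000049577, chromosome 8, 122282141 to 122337251, plus strand), which encodes FOG1, was at 149 CPM in Ctrl (140 to 158) and 136 CPM in cKO (122 to 152) in erythroid progenitor-like cells, at 182 CPM (152 to 217) and 139 CPM (95.4 to 195) in erythroblast-like cells and at 199 CPM (158 to 248) and 202 CPM (130 to 298) in megakaryocyte-like cells. Basophil/mast-like cells, in which Gata2 was highest, had 4 Zfpm1 UMIs in Ctrl and 0 in cKO, where the interval reaches 38.4 CPM. Outside these lineages it was also measured in lymphoid cells, with 73.7 CPM (62.4 to 86.5) in 519 Ctrl B-like cells and 71.7 CPM (23.3 to 167, 5 UMIs) in 14 cKO B-like cells, and 57.0 and 24.4 CPM in T/NK-like cells. Gata1 and Klf1 were at 4.39 and 3.42 CPM in the same Ctrl B-like cells.

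Nfe2 (ENSMUSG00000058794, chromosome 15, 103248212 to 103258403, minus strand), known for its part in platelet release, had its highest level in mature neutrophils. mNeu-like cells had 284 CPM in Ctrl (268 to 301) and 241 CPM in cKO (231 to 251), and thinned to 1000 UMIs 24.6% and 21.3% of them had a UMI. Next were basophil/mast-like cells, with 178 CPM (127 to 243) and 208 CPM (127 to 321), and HSC-like cells, with 168 CPM (132 to 210) and 164 CPM (108 to 239). The mNeu-like interval was apart from theirs in Ctrl but overlapped that of basophil/mast-like cells in cKO. Erythroid progenitor-like cells had 60.4 CPM (54.6 to 66.6) and 52.7 CPM (44.1 to 62.6), and erythroblast-like cells 146 CPM (119 to 177) and 122 CPM (81.6 to 175). Megakaryocyte-like cells had 118 CPM (87.1 to 157) and 145 CPM (86.0 to 229), overlapping the erythroblast-like intervals in both libraries. Along neutrophil maturation it went from 75.4 and 71.8 CPM in ProNeu-like through 127 and 135 CPM in imNeu-like to the mNeu-like level, in the same order in both libraries. The neutrophil classes held 54.9% of Nfe2 UMIs in Ctrl and 77.0% in cKO.

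Epor (ENSMUSG00000006235, chromosome 9, 21958897 to 21963506, minus strand), the receptor that red cell progenitors need to survive, was measured in red cells and rested on few UMIs elsewhere. Erythroid progenitor-like cells had 102 CPM in Ctrl (94.6 to 110) and 118 CPM in cKO (104 to 132), and erythroblast-like cells 92.5 CPM (71.3 to 118) and 92.4 CPM (57.9 to 140). Megakaryocyte-like cells held 4 and 1 UMIs, HSC-like cells 1 and 0, and basophil/mast-like cells 0 in both. The basophil/mast-like intervals reach 16.4 CPM in Ctrl and 38.4 CPM in cKO. Macrophage-like cells held 2 and 1 UMIs. mNeu-like cells held 12 and 3 UMIs and imNeu-like cells 17 and 2. In Ctrl these gave 3.12 and 1.09 CPM, above the 0.779 and 0.192 CPM of 3 counts. The red cell classes held 79.1% and 82.6% of Epor UMIs.

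**Figure D2:**
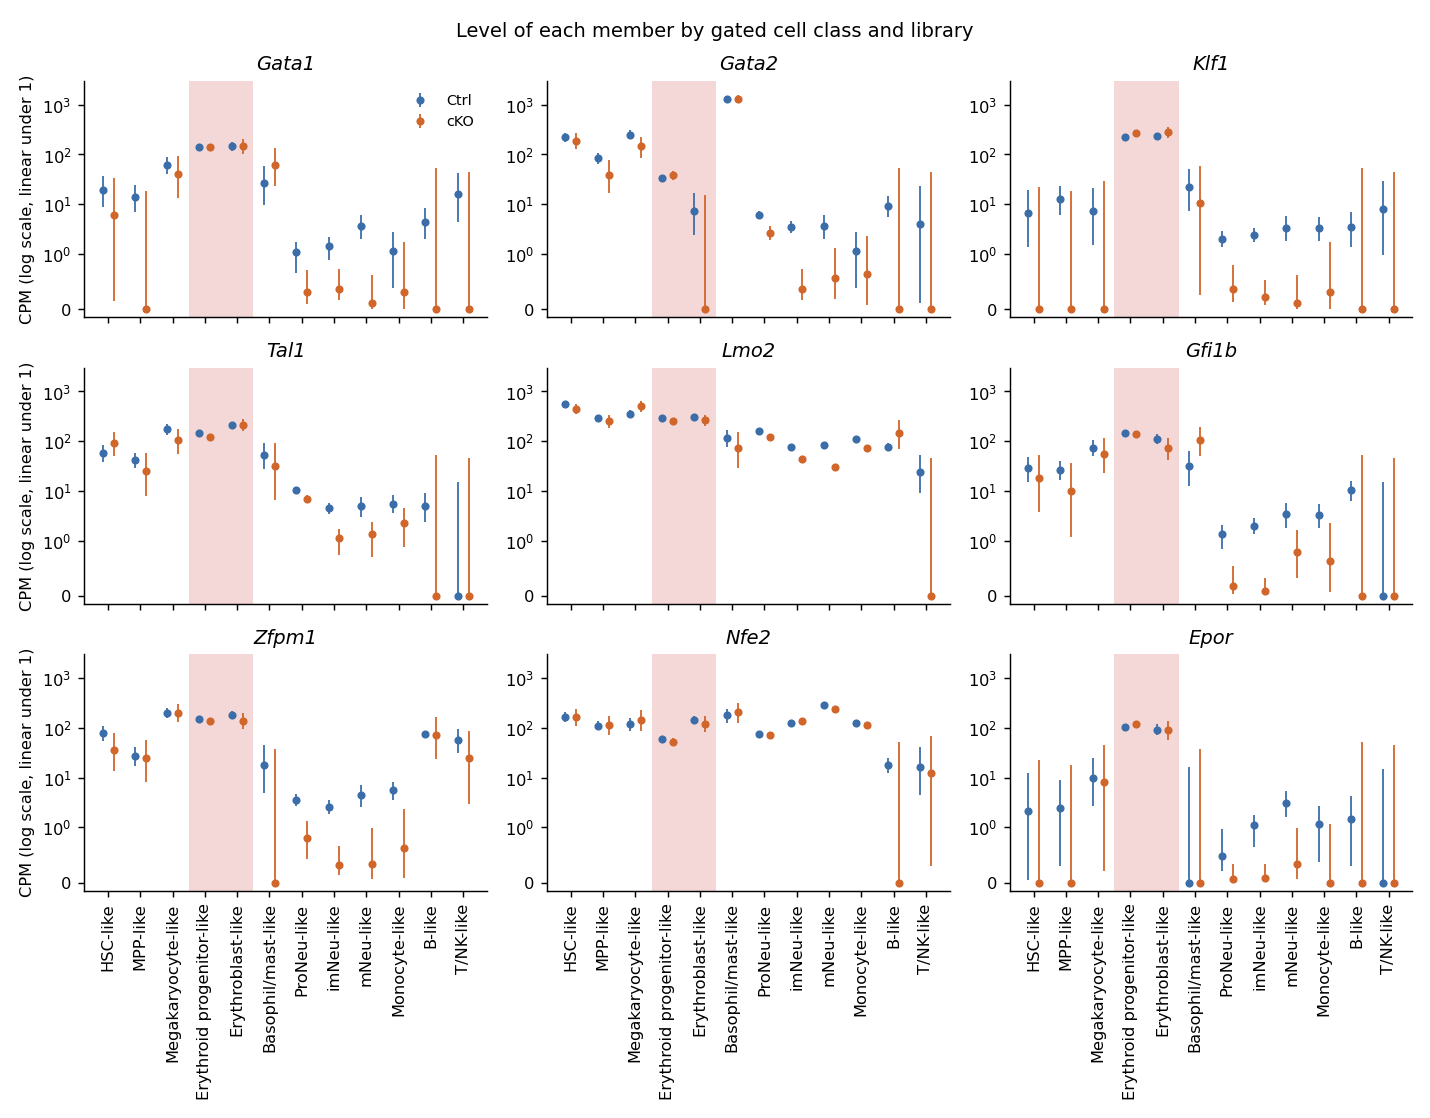
Level of each of the 9 members (CPM, log scale that is linear under 1) in 12 marker-gated classes of the Ctrl (blue) and cKO (orange) library. Points are class sums, bars exact 95% counting intervals, and the shaded band marks the red cell classes. Gata1, Klf1, Gfi1b and Epor peak in the band, Gata2 peaks at 1287 and 1291 CPM in basophil/mast-like cells and Nfe2 at 284 and 241 CPM in mNeu-like cells.

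The comparison of the libraries asked whether loss of Map4k4 went with a shift of this circuit inside the red cell classes. In erythroid progenitor-like cells the 9 members differed little. The log2 ratio of cKO over Ctrl CPM ran from -0.27 (Tal1, -0.46 to -0.08) to 0.27 (Klf1, 0.14 to 0.40), with a median of -0.07. Lmo2 had a log2 ratio of -0.18 (-0.31 to -0.04), Nfe2 -0.20 (-0.49 to 0.09), Zfpm1 -0.13, Gfi1b -0.07, Gata1 0.01 (-0.17 to 0.19), Gata2 0.17 (-0.19 to 0.52) and Epor 0.20 (0.00 to 0.40). The median over all 10909 genes with at least 10 UMIs in the class was -0.18. None of the 9 was 2-fold or more higher or lower, where 1.69% of all genes were 2-fold or more higher and 9.35% were 2-fold or more lower. When each cell counted equally (mean of per-cell proportions), the log2 ratio became -0.72 for Nfe2, -0.55 for Zfpm1, -0.31 for Gata1 and -0.13 for Epor, still within 2-fold. Without barcodes present in both libraries, Gata2 had a log2 ratio of -0.61, against 0.17 with all barcodes, and 36 of the 82 cKO cells were left.

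Erythroblast-like cells gave wider intervals with fewer UMIs. Of 8 members with at least 10 UMIs, none was 2-fold or more higher or lower, beside 5.52% and 19.7% of the 6444 genes counted there. Their log2 ratios ran from -0.62 for Gfi1b (-1.47 to 0.15) to 0.26 for Klf1 (-0.18 to 0.68), and the all-gene median was -0.23. Only 18 cKO cells carried these values, and 1 cell held between 24.2% and 35.3% of the UMIs of each of the 8 members. Without barcodes shared between the libraries 5 were left, with a log2 ratio of -3.29 for Lmo2, -2.20 for Nfe2 and -1.70 for Tal1. In HSC-like cells Gata2 had a log2 ratio of -0.24 (-0.87 to 0.36) and Lmo2 -0.34 (-0.73 to 0.04). There 2 of 7 counted members were 2-fold or more lower, Gata1 (-1.69, -7.14 to 1.16) and Zfpm1 (-1.10, -2.64 to 0.16), with 1 and 6 cKO UMIs. In MPP-like cells 2 of 8 were, Gata2 (-1.10, -2.37 to -0.04) and Gfi1b (-1.41, -4.54 to 0.63), with 8 and 2 cKO UMIs. In basophil/mast-like cells Gata2 had 0.00 (-0.31 to 0.31), and 2 of 6 members were 2-fold or more higher. These were Gata1 (1.22, -0.68 to 3.13), with 6 UMIs in each library, and Gfi1b (1.74, 0.20 to 3.37). All 10 cKO UMIs of Gfi1b came from 1 cell. In megakaryocyte-like cells none of 7 was past 2-fold, with Zfpm1 at 0.02 (-0.69 to 0.68). Of these only Gata2 (-0.79) and Lmo2 (0.50, 0.05 to 0.93) had intervals without 0, from 6 cKO cells. The share of all genes past 2-fold was not computed for HSC-like, MPP-like, basophil/mast-like and megakaryocyte-like cells. Their counts past 2-fold are therefore no result about the members.

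**Figure D3:**
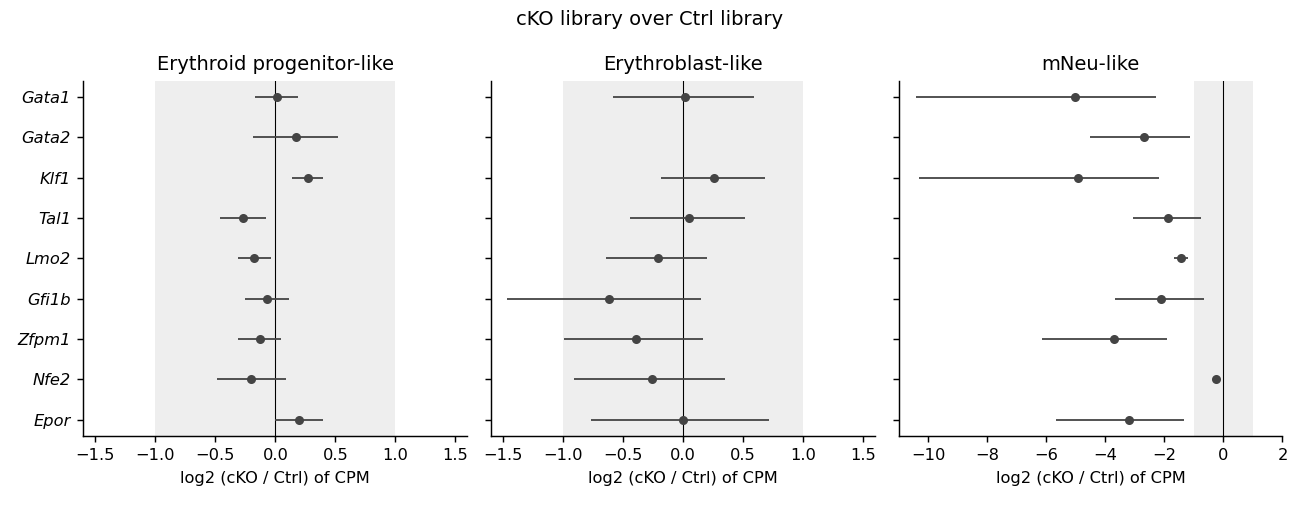
Log2 ratio of cKO over Ctrl CPM for each member in erythroid progenitor-like, erythroblast-like and mNeu-like cells, with exact 95% counting intervals (Gata2 has under 10 UMIs in erythroblast-like cells). The grey band marks less than 2-fold. All members lie in the band in the red cell classes, and all but Nfe2 lie below it in mNeu-like cells, on a wider axis.

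In mNeu-like cells, by contrast, 8 of 9 members were 2-fold or more lower in cKO and none was 2-fold or more higher, where 21.1% of the 10056 genes counted there were lower and 1.98% higher by that limit. Most of these rested on few UMIs. Gata1 had 14 UMIs in Ctrl and 1 in cKO, Klf1 13 and 1, Epor 12 and 3. Lmo2 had 320 and 271, at 83.1 CPM in Ctrl (74.2 to 92.7) and 30.4 CPM in cKO (26.9 to 34.2), a log2 ratio of -1.45 (-1.69 to -1.21) where the all-gene median was -0.46. With median-of-ratios scaling it was -0.99, inside 2-fold. Nfe2, the member with most UMIs there, had a log2 ratio of -0.24, which turned to 0.22 with that scaling. Tal1 turned to 0.49 in cells with at least 5000 UMIs. Haemoglobin, which mature neutrophils do not make, was 0.0512% of UMIs in Ctrl and 0.00498% in cKO mNeu-like cells. Its part in the member values was not tested. The Ctrl mNeu-like cells held 22.9 Lmo2 UMIs per Gata1 UMI, against 2.05 in Ctrl erythroid progenitor-like cells. In Ctrl ProNeu-like, monocyte-like and imNeu-like cells it was 143, 95.8 and 54.6. What sets these ratios was not tested. Lower values in cKO were not particular to mNeu-like cells, where the median log2 ratio of the members was -2.70. For the members counted in imNeu-like, ProNeu-like and monocyte-like cells it was -3.00, -1.52 and -1.84. The all-gene median was -0.38 in imNeu-like and -0.31 in ProNeu-like cells.

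The wider circuit was read from 7 gene lists in erythroid progenitor-like cells. Counts of genes past 2-fold are read against the share over all genes in this class, 1.69% higher and 9.35% lower. Of 14 counted GATA and TAL1 complex partners none was past 2-fold. Their median log2 ratio was -0.43, where the members had -0.07 and all genes -0.18. Ldb1, the partner that joins LMO2 to form loops, was at 194 CPM in Ctrl and 175 CPM in cKO. Ldb1, Rcor1 and Mta2 were highest in erythroid progenitor-like and Ssbp3 in erythroblast-like cells. Among NFE2 partners and relatives, 1 of 6 was past 2-fold, Bach2 with 28 and 2 UMIs. Among erythroid and globin regulators 1 of 12 was past 2-fold, Myb, which holds progenitors in cycle, at 361 CPM in Ctrl and 172 CPM in cKO (log2 ratio -1.07, -1.22 to -0.92). Myb was also lower in HSC-like cells, its highest class, at 795 CPM in Ctrl and 377 CPM in cKO, so this was not particular to red cells. Sox6, a partner in globin silencing, was just inside the 2-fold limit at 59.8 and 30.2 CPM. The medians of the NFE2 and the globin list were -0.37 and -0.44, so the -0.43 of the complex partners was not particular to them. For the NFE2 and the globin list, 1 gene past 2-fold in lists this short is no result about the lists.

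EPO receptor signalling was the only one of the 7 lists with genes 2-fold or more higher in cKO. Of 12 counted genes 3 were 2-fold or more higher, where 1.69% of all genes were. Cish, a feedback inhibitor induced by STAT5, had 1.35 CPM in Ctrl (9 UMIs) and 10.5 CPM in cKO (26 UMIs), a log2 ratio of 2.95 (1.81 to 4.23). Its UMIs were spread over 9 Ctrl and 18 cKO cells. Erfe, the erythroferrone gene that EPO induces in red cell precursors, had 2.25 CPM (15 UMIs) and 12.1 CPM (30 UMIs), a log2 ratio of 2.42 (1.48 to 3.42), from 12 Ctrl and 18 cKO cells. Without shared barcodes it was 0.93, inside 2-fold, while Cish was at 2.87. Socs2, another feedback inhibitor, had 4 and 7 UMIs (log2 ratio 2.23, 0.25 to 4.45). Cish and Socs2 were not highest in red cells but in T/NK-like cells (72 in Ctrl and 14 in cKO). There Cish had 61.1 CPM in Ctrl and 134 CPM in cKO, and Socs2 97.7 and 61.1 CPM. Erfe was highest in erythroblast-like cells, at 2.89 and 37.8 CPM. Kit, the stem cell factor receptor, was lower, at 98.7 and 44.7 CPM (log2 ratio -1.14, -1.45 to -0.85, and -0.97 with median-of-ratios scaling), and Jak2 was at 58.4 and 36.6 CPM. Both libraries hold a fraction selected for c-Kit, the product of Kit, and the part of this selection in the Kit values was not tested. Other induced genes of the list did not follow, with Pim1 at 34.6 and 39.9 CPM and Bcl2l1 at 6.46 and 4.83 CPM, and the median of the list was -0.09. All of this rests on 82 cKO cells of 1 library. The 25 of them with under 5000 UMIs held only 47581 of the 2483975 UMIs.

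**Figure D4:**
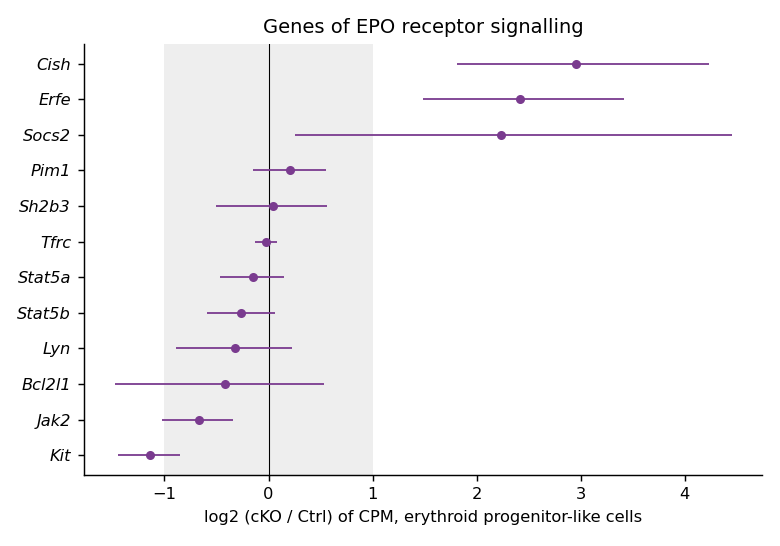
Log2 ratio of cKO over Ctrl CPM in erythroid progenitor-like cells for the 12 counted genes of EPO receptor signalling, with exact 95% counting intervals. The grey band marks less than 2-fold. Cish (2.95), Erfe (2.42) and Socs2 (2.23) lie to the right of the band and Kit (-1.14) to the left.

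The listed GATA1 target genes of red cells are mostly gate markers of the red cell classes, so their place among the classes is no finding. In erythroid progenitor-like cells the haem synthesis gene Alas2 (20.4 CPM in Ctrl and 7.65 CPM in cKO) and the anion exchanger gene Slc4a1 (137 and 58.4 CPM), both erythroblast gate markers, were 2-fold or more lower in cKO. The transferrin receptor gene Tfrc, at 418 and 412 CPM, and Icam4, at 48.5 and 70.9 CPM, were within 2-fold. Of 12 genes for myeloid and lymphoid fate 7 were 2-fold or more lower, Myb, Cebpa, Cebpe, Gfi1, Irf8, Ebf1 and Id2, where 9.35% of all genes were. Among these Cebpa held 25 UMIs in Ctrl and 1 in cKO, Gfi1 40 and 7, Id2 40 and 4, Irf8 94 and 5, and Ebf1 36 and 0. None of the 12 was highest in a red cell class. Cebpe and Ebf1 are gate markers of other lineages, and cells passing those gates were left out, so both values depend partly on the gating. In their highest classes Irf8 had 4368 and 4211 CPM, Ebf1 1584 and 1477, Id2 635 and 782 and Cebpe 565 and 511. Cebpa had 174 and 364 CPM there and Gfi1 125 and 89.1, while Myb is given above. B-like cells were 8.45% of gated cells in Ctrl and 0.331% in cKO. The part of gating and free RNA was not tested. Of 7 counted megakaryocyte genes 1 was past 2-fold, Pf4, with 67 and 7 UMIs. In megakaryocyte-like cells themselves Pf4, a gate marker, had 12485 CPM in Ctrl and 9094 CPM in cKO.

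Across 15 classes, the genes whose levels ran most like each member were read by Pearson r of log2(CPM + 1), as a description over classes that share libraries and depth. Tal1 and Gfi1b were among each other's 3 nearest of 10594 genes (r = 0.923 over both libraries, 0.926 in Ctrl and 0.931 in cKO). Reep6 was nearest to both, with r = 0.932 to Tal1 and 0.935 to Gfi1b. The nearest gene to Nfe2 was Mafg (r = 0.845), which encodes a small MAF partner of NF-E2, to Gata2 it was Slc18a2 (r = 0.963), a vesicle amine transporter of mast cells, and to Gata1 Icam4 (r = 0.967), a red cell adhesion gene that is also a gate marker. Klf1 was nearest to Rabgef1 (r = 0.944 over both libraries but 0.610 in cKO) and Epor to Spire1 (r = 0.944). Lmo2 was nearest to Ranbp6 (r = 0.912 over both libraries but 0.753 in Ctrl and 0.610 in cKO). Zfpm1 was nearest to Tlk1 (r = 0.943 over both libraries but 0.477 in cKO). The third gene nearest to Epor was Sptb (r = 0.915), a spectrin gene of the red cell membrane. Among the members, Gata1 and Klf1 had r = 0.91, Gata2 and Epor r = 0.01 and Zfpm1 and Nfe2 r = -0.10.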

How the data were processed

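Single-cell 3′ libraries of 1 Ctrl and 1 cKO BM mixture were used. Per the labels, the authors made the deposited UMI counts per gene and cell with Cell Ranger 5.0.0 on mm10. The counts were not normalised, and the matrices held 0 other value columns. The cell filter was 200 to 9000 genes and a mitochondrial share of 30% or less. Those with at least 1000 UMIs were thinned to 1000 (seed 11) and put in the class whose markers, over the mean of cells (pseudocount 0.5), were most enriched, with at least 3 distinct markers. Cells passing gates of different lineages were left out and no doublet caller was run. The gating rule was chosen after the matrices were seen. The members and lists were chosen with earlier results of these data known. Unthinned UMIs were summed per class and library. CPM has exact Poisson intervals, shares Clopper-Pearson intervals and ratios exact binomial intervals, all 95% and for counting error only. Ratios needed at least 10 UMIs over both libraries. No test was possible with 1 library a group. Named genes were the 9 members, for each the 3 genes of highest r among those with at least 200 UMIs (of which the nearest and a few others are printed), and list genes past 2-fold or highest in a red cell class, read in erythroid progenitor-like cells only. Some genes of the GATA1 target list are not reported here, so no count is given for that list. Jak2 and Pim1 were named after their values were seen. Start-site sequences came from RefSeq (GRCm38.p6) and gene positions from GENCODE vM21. The interval code was tested on simulated counts (scipy 1.17.1, numpy 2.4.6 and pandas 2.3.3 under Python 3.11.15). Alternatives changed 1 filter, gate depth, marker minimum or scaling at a time, and another random draw, a minimum of 5000 UMIs, keeping cells of 2 lineages and leaving out shared barcodes were added after the data were seen.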

Additional observations from a re-analysis of the deposited data

Results flagged for a closer look

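Kept cells with under 1000 UMIs entered no class. In 1170 such Ctrl cells Gata1 had 23.6 CPM (14.4 to 36.5) and Klf1 26.0 CPM (16.3 to 39.3), and in 1371 such cKO cells Gata1 had 9.04 CPM (4.13 to 17.2) and Klf1 19.1 CPM (11.5 to 29.8). All 4 values were above the level that 3 UMIs would give there, 3.54 CPM in Ctrl and 3.01 CPM in cKO.

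The log2 ratio of cKO over Ctrl for Gfi1b pointed up in basophil/mast-like cells (1.74) and down in ProNeu-like (-2.87), imNeu-like (-4.44), mNeu-like (-2.10) and monocyte-like cells (-2.36). The difference between these classes was not tested. The 10 cKO UMIs of the first class came from 1 cell, and the cKO sums of the others were 3, 2, 7 and 2 UMIs.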

How the results depend on the processing

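No paired analysis was possible because each group has 1 library, and for the same reason no library could be left out. Over 904 recomputed values, 750 stayed within the counting interval of the reported value. Of 725 recomputed log2 ratios 74 changed sign, 7 of them from a reported value past 2-fold and 67 from one within it. In erythroid progenitor-like cells no member passed 2-fold in any of 13 alternatives. The log2 ratios of cKO over Ctrl there that moved were, with the mean of per-cell proportions, Nfe2 -0.72, Zfpm1 -0.55, Lmo2 -0.39, Gata1 -0.31, Gata2 -0.20, Epor -0.13 and Klf1 -0.02. Gating on all UMIs gave Gata2 -0.53 and Gata1 -0.20, at most 10% mitochondrial UMIs gave Gata2 -0.22, and median-of-ratios scaling gave Klf1 0.45 and Lmo2 0.00. Leaving out barcodes of both libraries gave Gata2 -0.61, Nfe2 -0.65 and Klf1 0.49. Of values past 2-fold, the sign changed for Gata2 in MPP-like cells, from -1.10 to 0.10 (at most 10% mitochondrial UMIs), 1.02 (gating on 2000 UMIs), 1.22 (another random draw) and 1.42 (at least 5000 UMIs). It also changed for Tal1 in mNeu-like cells (0.49, at least 5000 UMIs), Zfpm1 in HSC-like cells (1.97, gating on 500 UMIs) and Nfe2 in cKO erythroblast-like over erythroid progenitor-like cells (-0.34, shared barcodes left out). In erythroid progenitor-like cells Gata1, Gata2, Klf1, Gfi1b, Zfpm1 and Epor, all within 2-fold, changed sign in at least 1 alternative. Of other smaller values, Nfe2 in mNeu-like cells turned to 0.22 (median-of-ratios scaling) and Tal1 in erythroblast-like over erythroid progenitor-like cells to -0.03 in Ctrl (mean of per-cell proportions) and -1.06 in cKO (shared barcodes left out). Cish (2.00 to 3.21) and Socs2 (1.46 to 3.31) stayed past 2-fold in all 13 alternatives in erythroid progenitor-like cells, and Erfe (0.93 to 3.43) and Kit (-1.93 to -0.97) in 12 of 13. The Gata1 percent of Gata1 and Gata2 UMIs in erythroid progenitor-like cells of Ctrl was 75.9 with at most 10% mitochondrial UMIs, 85.8 and 74.2 with gating on 500 and 2000 UMIs, 85.1 with 1 marker more and 76.3 with at least 5000 UMIs. In cKO it was 83.6 and 71.5 with gating on 500 and 2000 UMIs, 82.7 on all UMIs, 84.2 with 1 marker more and 85.7 without shared barcodes. The erythroid progenitor-like share of Ctrl gated cells was 4.91% with gating on 500 UMIs, 4.89% on all UMIs, 5.28% with 1 marker more, 8.40% with at least 5000 UMIs and 5.26% without shared barcodes. In cKO it was 1.43% and 1.35% with gating on 500 and on all UMIs and 2.93% with cells of 2 lineages kept. The erythroblast-like share was 3.02% and 1.49% in Ctrl with gating on 500 and 2000 UMIs and 0.252% in cKO without shared barcodes. Except where an alternative changes the number of cells or the scaling by construction, the cause of these moves was not tested. Depth limits every value in cKO erythroblast-like, megakaryocyte-like and basophil/mast-like cells.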
